A study of Mus musculus with 2 samples.

Results

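The redox and glutathione defence genes are the enzymes and regulators that cells use to remove peroxides and superoxide, to keep protein thiols reduced and to attach glutathione to reactive compounds. They were chosen by symbol, as every gene whose name falls in the glutathione transferase (classes kappa, mu, omega, pi, theta, zeta and microsomal), glutathione peroxidase, peroxiredoxin, thioredoxin, glutaredoxin or superoxide dismutase families, together with Cat, Gclc, Gclm, Gss, Gsr, Hmox1, Nqo1, Nfe2l2, Keap1, Srxn1 and Txnip. The rule gave 66 of the 18193 genes with a probe set of 1 symbol, measured by 126 probe sets. The rule reads symbols alone. Prdx1, Prdx5 and Prdx6 had no probe set paired with a single symbol and were not analysed here.

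The series compared CD4+ T cells from DEREG animals, whose transgene has the Foxp3 promoter drive a diphtheria toxin receptor fused to green fluorescent protein (GFP), on Affymetrix Mouse Genome 430 arrays. CD4+GFP+FoxP3+ cells are called GFP-positive below and CD4+GFPnegFoxP3neg cells GFP-negative, and both came from the same transgenic strain, with a stated purity after sorting above 99%. Each population is 1 array, so there is no replicate, no difference has a test, and every value describes these 2 arrays. The sources used here do not give the organ, the treatment if any, or the age, sex and number of the mice.

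The labels were checked on the gene that drives the reporter. Foxp3, the defining transcription factor of regulatory T cells, had a signal of 504 in GFP-positive cells and 173 in GFP-negative cells, 2.91-fold higher. That direction is the one the labels give, but the FoxP3neg array still had a Foxp3 signal above the floor given below. The 5 markers of regulatory T cells listed, Foxp3 among them, were all higher in GFP-positive cells and all above the floor on both arrays. Ikzf2 had 4435 in GFP-positive cells and 2250 in GFP-negative cells, and Ctla4 had 2420 in GFP-positive cells and 1244 in GFP-negative cells. The part of these GFP-negative signals in the differences below was not tested. All 5 T cell markers with a probe set were above the floor on both arrays and lower in GFP-positive cells, with a median of -0.61 log2. They ranged from -0.02 log2 for Cd3d to -0.69 log2 for Cd4, which had 256 in GFP-positive cells and 415 in GFP-negative cells. What part these lower signals have in the differences below was not tested. In bulk RNA of this kind, fewer cells of a type and less RNA per cell cannot be told apart. A signal floor of 62.7 was taken from 78 genes restricted to other tissues, and a lower signal was raised to it before log2 was taken. Where 1 of the 2 signals lay below the floor, the fold is a lower bound, written as at least N-fold.

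Glutathione is a tripeptide made in 2 steps, by glutamate-cysteine ligase (Gclc and Gclm) and glutathione synthetase (Gss), and glutathione reductase (Gsr) returns its oxidised form to the reduced one with NADPH. Glutathione peroxidases and peroxiredoxins spend this reducing power, or that of thioredoxin, on peroxides, and superoxide dismutases and catalase act without it. The transcription factor NRF2 (Nfe2l2), held down by KEAP1, binds antioxidant response elements in many of these genes. In T cells the supply of glutathione and thioredoxin is known to limit growth after activation, and regulatory T cells are known for their effect on the thiol balance of neighbouring cells.

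**Figure D1:**
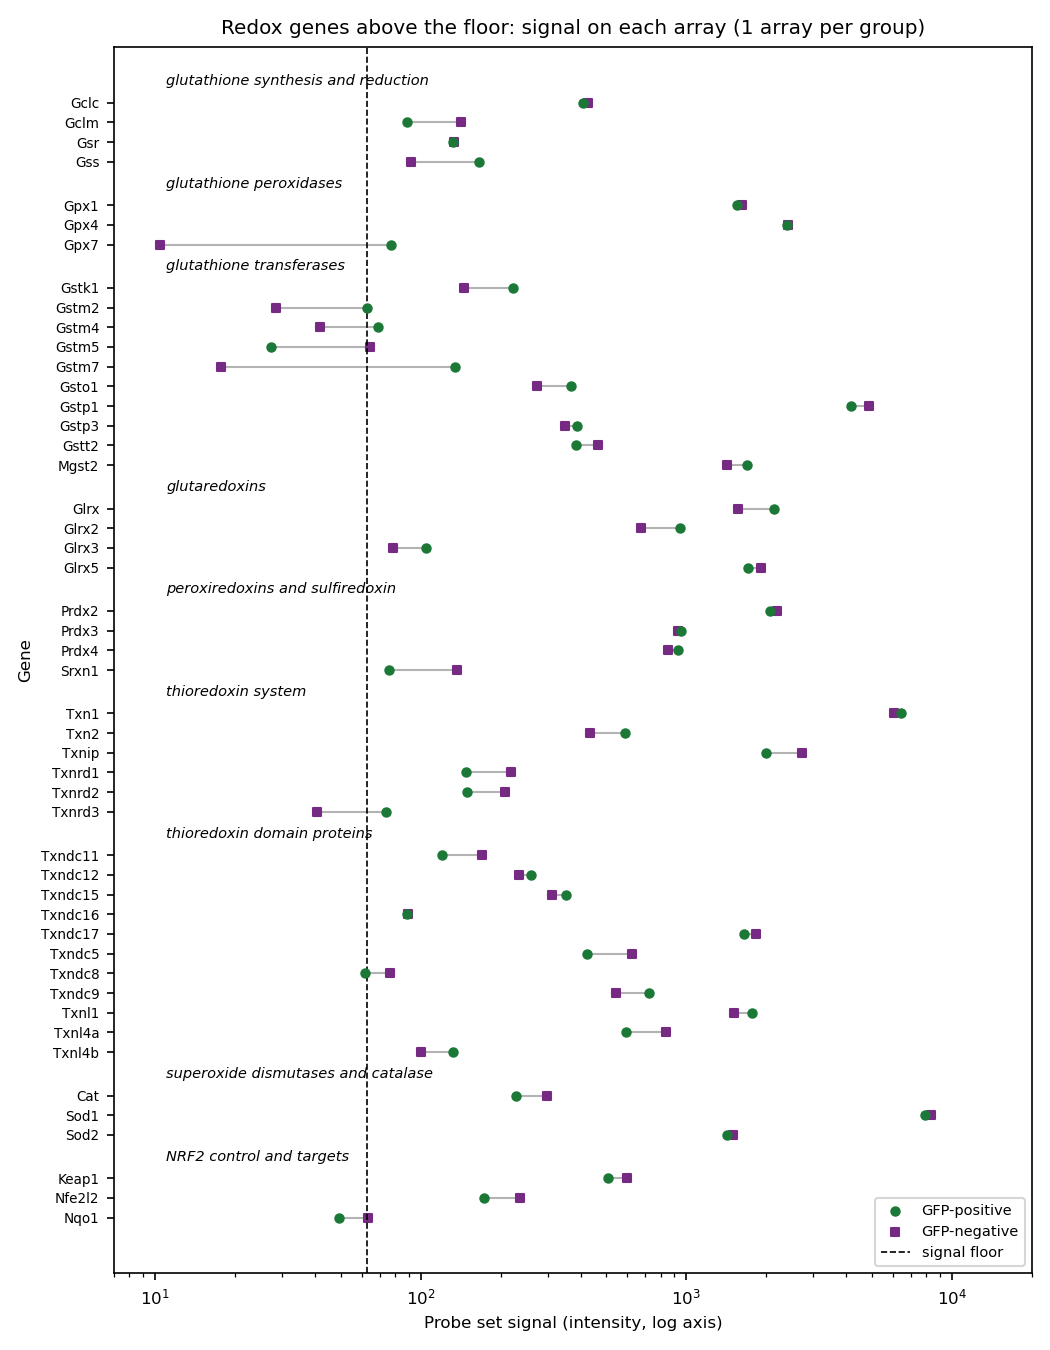
Signals of the 48 redox genes whose higher signal exceeded the floor, 1 row per gene and 1 point per array, on a log axis, with the floor of 62.7 as a dashed line. The 2 points of most genes lie close together, and the widest gaps, those of Gpx7 and Gstm7, have their GFP-negative point below the floor.

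Signals of these genes differed little between the 2 arrays. Of the 66 genes, 48 had a signal above the floor on at least 1 array, 40 of them on both. Among the 48, 22 were higher and 26 lower in GFP-positive cells, with a median difference of -0.01 log2 and quartiles of -0.25 and 0.24 log2. Over all 10280 genes above the floor the median was also -0.01 log2, with quartiles of -0.26 and 0.25 log2. A difference of 2-fold or more was found for 1 of the 48, Gstm7, which was higher in GFP-positive cells, against 1.75% of all genes. None of the 48 was at least 2-fold lower, against 1.72% of all genes. At a looser limit of 1.5-fold, 3 members were higher, against 8.79% of all genes, and 2 were lower, against 7.77% of all genes. These shares are near or below those of all genes, and 43 of the 48 members (89.6%) lay within 1.5-fold, against 83.4% of all genes. Some of the 43 were above the floor on 1 array only, so their true fold may be larger. Of the 40 members above it on both arrays, 36 (90%) lay within 1.5-fold, against 85.3% of all such genes.

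**Figure D2:**
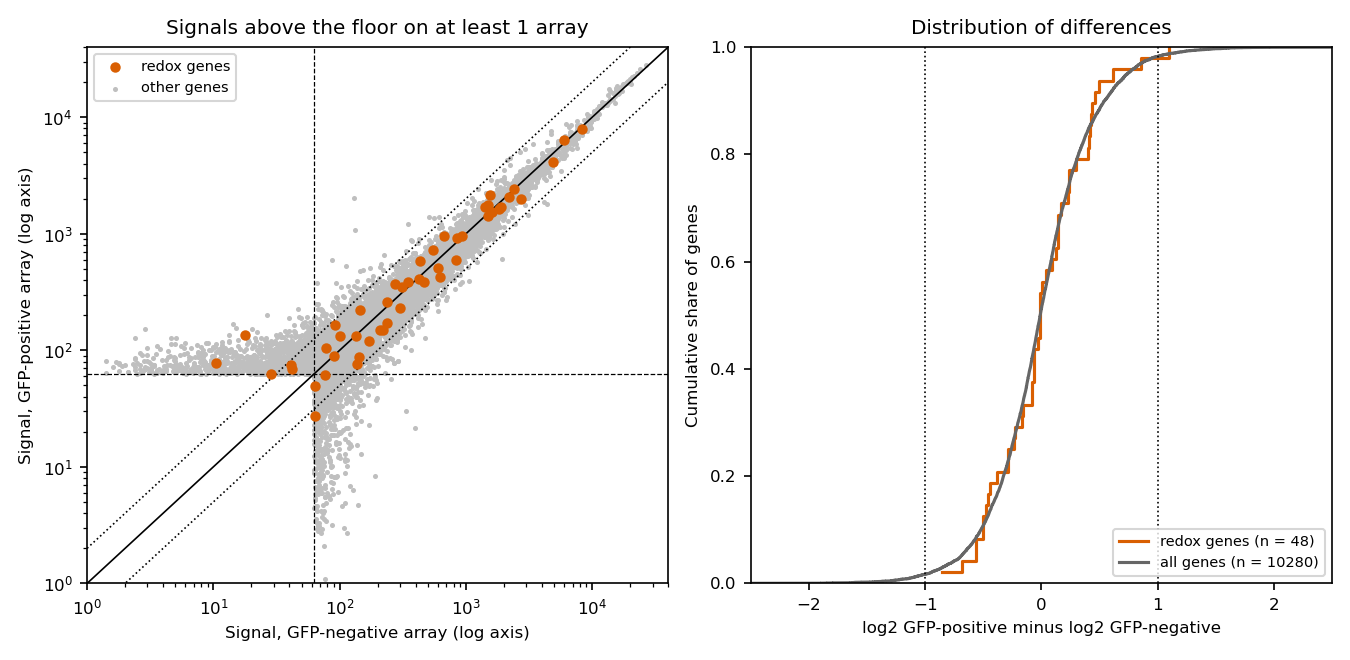
Left, signals of each gene on the GFP-positive and GFP-negative arrays (log axes), with equality as a solid line, 2-fold as dotted lines and the floor as dashed lines. Right, the cumulative share of genes by log2 difference, where the 48 redox genes follow the curve of all 10280 genes and 1 of them lies beyond a difference of 1.

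Promoter stretches of 5 members are shown as examples of the 11 with an antioxidant response element core: the 3 that differed by more than 1.5-fold, a thioredoxin reductase (Txnrd1) and NRF2 itself (Nfe2l2), chosen with their values known. RefSeq windows (GRCm38.p6) of 250 bases before to 50 after each gene start were searched on both strands for TGACNNNGC, the core of the antioxidant response element. The motif was in 11 of 81 windows of members (13.6%) and in 4071 of 32851 windows of all genes (12.4%), and 59 of the 66 members had a window. Counted by gene, 18.6% of these members held it, against 14.0% of all genes with a window and 16.15% of those on the array. None of the 11 matches of members overlapped an AP-1 site written TGACTCA or TGAGTCA. Each stretch below is read 5′ to 3′ on the strand of its gene, with the match in capitals. The matches of Gclm, Srxn1 and Txnrd1 lie on the opposite strand and appear as GCNNNGTCA.
Gclm, chr3:122245398-122245456, plus strand: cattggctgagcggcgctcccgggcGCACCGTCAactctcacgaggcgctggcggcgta
Gstm7, chr3:107931710-107931768, minus strand: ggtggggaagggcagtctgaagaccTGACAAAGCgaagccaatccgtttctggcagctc
Srxn1, chr2:152105527-152105573, plus strand: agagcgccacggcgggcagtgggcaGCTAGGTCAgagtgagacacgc
Txnrd1, chr10:82859089-82859147, plus strand: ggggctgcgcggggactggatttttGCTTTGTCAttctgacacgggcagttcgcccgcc
Nfe2l2, chr2:75704870-75704913, minus strand: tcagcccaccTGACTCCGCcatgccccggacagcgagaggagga
The windows of Gss and Gstk1, the other members past 1.5-fold, and of Txnrd2, Txnip and Keap1 held no match, which says only that these letters are not in them.

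The genes of glutathione synthesis and reduction went both ways. Gss, which adds glycine in the last step, had signals of 166 in GFP-positive cells and 91.7 in GFP-negative cells, 1.81-fold higher. Its second probe set was also higher, at 128 in GFP-positive cells and 58.6 in GFP-negative cells, or at least 2.04-fold. It is thus the member past 1.5-fold for which a further probe set above the floor had the same direction, though its brightest probe set can match several transcripts. Gclm, the modifier subunit of glutamate-cysteine ligase, had signals of 88.4 in GFP-positive cells and 142 in GFP-negative cells, 1.60-fold lower. Its second probe set lay below the floor on both arrays, at 57.5 in GFP-positive cells and 26.8 in GFP-negative cells. Gclc, the catalytic subunit of the same enzyme, had signals of 408 in GFP-positive cells and 426 in GFP-negative cells, a difference of -0.06 log2. The second Gclc probe set gave 0.21 log2. Gsr, the reductase, had signals of 132 in GFP-positive cells and 134 in GFP-negative cells, a difference of -0.01 log2, while its second probe set was at least 1.66-fold higher.

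By their brightest probe sets, the glutathione peroxidases of most cells, Gpx1 and Gpx4, did not separate the populations. Gpx1, which reduces hydrogen peroxide in the cytosol, had signals of 1549 in GFP-positive cells and 1619 in GFP-negative cells, or -0.06 log2. Gpx4, which reduces lipid peroxides in membranes and guards against ferroptosis, had 2401 in GFP-positive cells and 2423 in GFP-negative cells, or -0.01 log2, a sign that turned under quantile normalization (0.04 log2) and lowess (0.03 log2). A second Gpx4 probe set was 1.82-fold higher, at 2033 in GFP-positive cells and 1116 in GFP-negative cells. Both Gpx4 probe sets are of kinds that can match several transcripts, and averaging them gave 0.43 log2. Gpx7, a peroxidase of the endoplasmic reticulum, was just above the floor in GFP-positive cells (77.2) and below it in GFP-negative cells (10.4), which makes it at least 1.23-fold higher. Gpx2, Gpx3, Gpx5, Gpx6 and Gpx8, known from gut, plasma, epididymis, olfactory tissue and the endoplasmic reticulum, lay below the floor on both arrays.

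The glutathione transferases split into members with a clear signal and members at background. Of 20 genes, 6 were above the floor on both arrays, 4 on 1 array and 10 on neither. Gstm7, a mu class transferase, had a signal of 134 in GFP-positive cells and 17.7 in GFP-negative cells, at least 2.14-fold higher. Its second probe set lay below the floor on both arrays, at 25.3 in GFP-positive cells and 29.2 in GFP-negative cells. Gstk1, the kappa class enzyme of mitochondria and peroxisomes, had 222 in GFP-positive cells and 145 in GFP-negative cells, 1.54-fold higher by its only probe set.

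Gstp1, the pi class enzyme, had a signal of 4164 in GFP-positive cells and 4871 in GFP-negative cells, 1.17-fold lower. Mgst2, a microsomal transferase that can make leukotriene C4, had 1685 in GFP-positive cells and 1425 in GFP-negative cells, 1.18-fold higher. Gsto1, the omega class enzyme, was 1.34-fold higher (367 in GFP-positive cells against 273 in GFP-negative cells), with a second probe set at -0.08 log2. Gstt2 was 1.22-fold lower and Gstp3 1.11-fold higher. The other mu class members lay near or below the floor: Gstm2, Gstm4 and Gstm5 had at most 69.2 on either array, and Gstm1, Gstm3 and Gstm6 at most 41.5 by their brightest probe sets. Mu class genes are close in sequence, so their probe sets may share transcripts.

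Of the 18 members below the floor on both arrays, 10 had the higher reading on the GFP-positive array (55.6%), against 55.4% of the 7913 genes below it. The median signal of the tissue-restricted probe sets was 19.1 in GFP-positive cells and 8.6 in GFP-negative cells. The part of this gap in the higher GFP-positive readings near the floor, those of Gstm7, Gpx7 and Gstm4 among them, was not tested.

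Among glutaredoxins, which use glutathione to reduce mixed disulphides, 3 of 4 genes were higher in GFP-positive cells and none passed 1.5-fold. Glrx, the cytosolic form, had signals of 2144 in GFP-positive cells and 1561 in GFP-negative cells, 1.37-fold higher. Glrx2, the mitochondrial form, had 949 in GFP-positive cells and 673 in GFP-negative cells, 1.41-fold higher. Glrx3, which serves iron-sulphur cluster transfer in the cytosol, was 1.33-fold higher at low signals of 105 in GFP-positive cells and 78.6 in GFP-negative cells. Glrx5, which serves iron-sulphur clusters in mitochondria, went the other way, with 1702 in GFP-positive cells and 1910.2 in GFP-negative cells, 1.12-fold lower. The further probe sets of Glrx and Glrx2 did not repeat the direction, at -0.25 log2 for Glrx and at -0.04 and -0.05 log2 for Glrx2.

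The measured peroxiredoxins, which reduce peroxides with thioredoxin, were nearly equal by their brightest probe sets. Prdx2, a cytosolic form, had signals of 2070.2 in GFP-positive cells and 2195 in GFP-negative cells, or -0.08 log2, and its second probe set gave 0.17 log2. Prdx3, the mitochondrial form, had 955 in GFP-positive cells and 927 in GFP-negative cells, or 0.04 log2. Prdx4, the form of the secretory pathway, had 928 in GFP-positive cells and 849 in GFP-negative cells, or 0.13 log2, and a second probe set above the floor gave 0.67 log2. Srxn1, sulfiredoxin, which repairs overoxidised peroxiredoxins, was 1.81-fold lower by its brightest probe set, with 76.1 in GFP-positive cells and 137 in GFP-negative cells. Another Srxn1 probe set went the other way, with 119 in GFP-positive cells and 39.9 in GFP-negative cells, at least 1.90-fold higher, so these arrays give no direction for Srxn1.

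In the thioredoxin system, cytosolic thioredoxin differed little by its brightest probe set and the 2 reductases above the floor on both arrays were lower in GFP-positive cells by their brightest probe sets. Txn1, cytosolic thioredoxin, had signals of 6411 in GFP-positive cells and 6021 in GFP-negative cells, or 0.09 log2, and its second probe set gave -0.34 log2. Txnrd1, the cytosolic reductase, had 148 in GFP-positive cells and 219 in GFP-negative cells, 1.48-fold lower. Txnrd2, the mitochondrial reductase, had 149 in GFP-positive cells and 208 in GFP-negative cells, 1.39-fold lower. Further probe sets went the other way, at 0.26 log2 for Txnrd1, and at 0.22 log2 and at least 0.91 log2 for Txnrd2. Txnrd3, best known from testis, had 74.1 in GFP-positive cells and 40.8, below the floor, in GFP-negative cells, at least 1.18-fold higher.

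Txn2, mitochondrial thioredoxin, had the widest disagreement among its own probe sets. The brightest gave 585 in GFP-positive cells and 434 in GFP-negative cells, 1.35-fold higher. The second gave 232 in GFP-positive cells and 310 in GFP-negative cells, 1.34-fold lower. The third gave 50.9 in GFP-positive cells, below the floor, and 291 in GFP-negative cells, at least 4.63-fold lower, which was the largest difference of any member probe set above the floor. Txnip, which binds and inhibits thioredoxin and limits glucose uptake, was lower by both probe sets, at -0.44 log2 (2002 in GFP-positive cells and 2717 in GFP-negative cells) and -0.05 log2.

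Proteins that carry a thioredoxin domain for other tasks had 11 of 12 genes above the floor, with 5 higher and 6 lower in GFP-positive cells and none past 1.5-fold. Txndc5, a disulphide isomerase of the endoplasmic reticulum, was 1.47-fold lower, with signals of 422 in GFP-positive cells and 622 in GFP-negative cells, and its second probe set gave -0.43 log2. Txnl4a, a component of the spliceosome, was 1.41-fold lower, with 593 in GFP-positive cells and 838 in GFP-negative cells, and its second probe set above the floor gave -0.35 log2. Txndc11 was 1.42-fold lower, with 120 in GFP-positive cells and 171 in GFP-negative cells. Txndc9, a partner of the chaperonin that folds actin and tubulin, was 1.32-fold higher by its brightest probe set, with 721 in GFP-positive cells and 545 in GFP-negative cells, and 1.80-fold lower by another. The remaining members of this group, Txnl1, Txnl4b, Txndc8, Txndc12, Txndc15, Txndc16 and Txndc17, differed by -0.29 to 0.41 log2. Txndc2, a sperm protein, was below the floor on both arrays.

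By their brightest probe sets, Sod1, Sod2 and Cat were all lower in GFP-positive cells and none passed 1.5-fold, while at least 1 further probe set of each went the other way. Sod1, the cytosolic enzyme, had signals of 7940.0 in GFP-positive cells and 8297 in GFP-negative cells, or -0.06 log2, and its next probe set gave 0.35 log2. Another gave -0.21 log2, and the last above the floor was at least 1.87-fold lower, with 30.0 in GFP-positive cells, below the floor, and 117 in GFP-negative cells. Sod2, the mitochondrial enzyme, had 1416 in GFP-positive cells and 1497 in GFP-negative cells, or -0.08 log2. Its other 2 probe sets above the floor gave -0.43 log2 and 1.06 log2, the second of them at 131 in GFP-positive cells and 62.9 in GFP-negative cells. Cat, catalase, was 1.31-fold lower, with 229 in GFP-positive cells and 299 in GFP-negative cells, but a second probe set was at least 1.56-fold higher. Sod3, the extracellular enzyme, was below the floor on both arrays.

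Transcript signals of the regulator NRF2 and its inhibitor were both slightly lower in GFP-positive cells by their brightest probe sets. Nfe2l2 had signals of 173 in GFP-positive cells and 237 in GFP-negative cells, 1.37-fold lower, and its second probe set gave -0.24 log2. Keap1 had 508 in GFP-positive cells and 598 in GFP-negative cells, 1.18-fold lower. Its second probe set lay below the floor on both arrays, at 31.0 in GFP-positive cells and 17.1 in GFP-negative cells. Nqo1, a quinone reductase and NRF2 target, lay below the floor in GFP-positive cells (49.0) and at it in GFP-negative cells (63.4), and Hmox1, the inducible haem oxygenase and another NRF2 target, lay below it in both (10.9 in GFP-positive cells and 17.5 in GFP-negative cells).

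**Figure D3:**
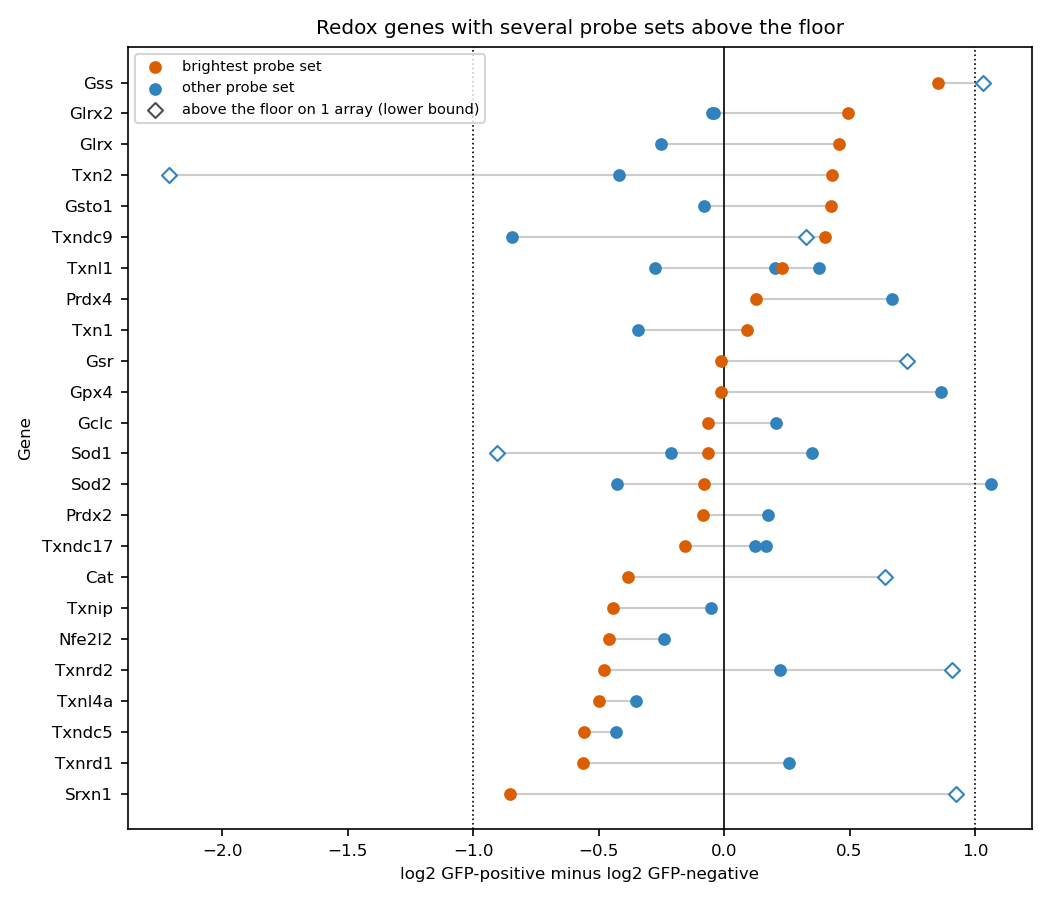
Log2 difference, GFP-positive minus GFP-negative, of each of 58 probe sets of the 24 redox genes that had at least 2 probe sets with a signal over the floor, ordered by the brightest probe set. For 18 of the 24 genes the probe sets lie on both sides of 0, and open diamonds are lower bounds.

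How far probe sets of 1 gene disagree gives the only measure of scatter in these data, and that scatter need not be technical alone. Among members with at least 2 probe sets above the floor on both arrays, 15 of 20 had probe sets with opposite signs (75%), against 55.0% of 3185 such genes on the whole array. The standard deviation of the log2 difference within a gene was 0.43 over 46 member probe sets and 0.39 over all 8100 such probe sets. It holds no variation between mice, sorts or hybridisations. Of the 40 members above the floor on both arrays, Gss, Srxn1, Gclm and Gstk1 had the differences of largest size. Of the 20 genes with several probe sets above the floor on both arrays, those whose probe sets shared a sign were Nfe2l2, Txndc5, Txnip and Txnl4a, all lower in GFP-positive cells, and Prdx4, higher. Counted by probe set, 3 of the 82 member probe sets above the floor were at least 2-fold higher, against 2.08% of all, and 1 was at least 2-fold lower, against 1.73% of all. Those 4 belong to Gss, Gstm7, Sod2 and Txn2. The 3′ to 5′ signal ratio, a measure of RNA integrity, was 5.30 for Actb and 9.27 for Gapdh on the GFP-positive array, against 3.57 for Actb and 6.24 for Gapdh on the GFP-negative array, and its part in these disagreements was not tested.

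Of 29 partner genes of glutathione, methionine sulphoxide and selenoprotein metabolism above the floor, 1 was at least 2-fold higher and none at least 2-fold lower in GFP-positive cells, against 1.75% and 1.72% of all genes, with a median of -0.0049 log2. That gene was Gsta4, an alpha class transferase that conjugates the lipid peroxidation product 4-hydroxynonenal, with 596 in GFP-positive cells and 86.7 in GFP-negative cells by its only probe set, 6.88-fold higher. Gsta4 was named because an earlier report gave it among the strongest differences, so the count holds a gene already known to differ. At a limit of 1.5-fold, 3 of the 29 were lower, against 7.77% of all genes, and 1 was higher, against 8.79%. Msra, which reduces oxidised methionine, was 1.75-fold lower (140 in GFP-positive cells against 244 in GFP-negative cells). Ggt5, which cleaves extracellular glutathione, was 1.55-fold lower, and its other probe sets were below the floor on both arrays. Secisbp2, which is needed to insert selenocysteine into proteins such as the glutathione peroxidases and thioredoxin reductases, was 1.75-fold lower by one probe set (440 in GFP-positive cells and 768 in GFP-negative cells) and 1.87-fold lower by the other.

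Genes that supply NADPH and one-carbon units had 1 of 15 members above the floor at least 1.5-fold higher, against 8.79% of all genes, none at least 1.5-fold lower, against 7.77%, and a median of 0.12 log2. That gene was Shmt1, a serine hydroxymethyltransferase, with 491 in GFP-positive cells and 284 in GFP-negative cells, 1.73-fold higher, and with 2 further probe sets at 0.86 and 0.66 log2. Among sources of reactive oxygen, with 9 genes above the floor, 1 was at least 2-fold higher, against 1.75% of all genes, and the median was 0.08 log2. It was Ncf1, which encodes the p47phox subunit of the phagocyte NADPH oxidase, with 396 in GFP-positive cells and 138 in GFP-negative cells, 2.87-fold higher, while its 2 further probe sets were below the floor on both arrays. Cybb, the catalytic subunit of the same oxidase, which was chosen after its values were seen, lay below the floor in both (36.4 in GFP-positive cells and 58.8 in GFP-negative cells).

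Of 26 regulators and further targets of NRF2 above the floor, 18 were lower, and the median was -0.13 log2, where all genes had 5265 lower and 5012 higher. In this list 2 genes were at least 1.5-fold higher, against 8.79% of all genes, and 4 at least 1.5-fold lower, against 7.77% of all genes. Blvrb, a biliverdin reductase that is abundant in red cells, was at least 2.43-fold lower (34.0 in GFP-positive cells against 153 in GFP-negative cells). Btrc, part of a ubiquitin ligase, was at least 1.79-fold higher, with 112 in GFP-positive cells and 45.3, below the floor, in GFP-negative cells. Its other probe sets were below the floor on both arrays. Foxo3 and Bach2, both transcription factors, were 1.75-fold and 1.61-fold lower. Further probe sets of Foxo3 and Bach2 gave smaller or opposite differences, at least 0.09 log2 for Foxo3 and -0.19 and 0.09 log2 for Bach2.

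Erythroid cells and phagocytes are rich in several of these enzymes, so their marker lists are given here. For erythroid cells and platelets, 3 of 6 markers were above the floor on at least 1 array, with a summed signal of 211 in GFP-positive cells and 266 in GFP-negative cells, and Hba-a1 and Alas2 were below the floor on both. Itga2b had 96.1 in GFP-positive cells and 102.0 in GFP-negative cells, and Pf4, a platelet gene, had 20.2 in GFP-positive cells and 75.6 in GFP-negative cells. For myeloid and dendritic cells, 4 of 9 were above it, with sums of 361 in GFP-positive cells and 411 in GFP-negative cells, and Lyz2, Cd68 and Cd14 were below it on both. Fcgr3 was at least 2.01-fold lower (35.0 in GFP-positive cells against 126 in GFP-negative cells), while Adgre1 had 94.3 in GFP-positive cells and 79.1 in GFP-negative cells, and Csf1r had 83.9 in GFP-positive cells and 43.5 in GFP-negative cells. For neutrophils, 2 of 6 were above it, both on the GFP-positive array only. Ltf had 87.8 in GFP-positive cells and 47.1 in GFP-negative cells, and Mpo had 63.1 in GFP-positive cells and 7.8 in GFP-negative cells. The sums over all 6 were 191 in GFP-positive cells and 206, all from signals below the floor, in GFP-negative cells. The other neutrophil markers, S100a8 and S100a9 among them, were below the floor on both arrays. For B cells, 2 of 6 were above it, with sums of 466 in GFP-positive cells and 470.5 in GFP-negative cells. The 2 went opposite ways: Cd79b had 222 in GFP-positive cells and 70.8 in GFP-negative cells, and Cd22 had 98.3 in GFP-positive cells and 235 in GFP-negative cells. For CD8 T and NK cells, 2 of 4 were above it, with sums of 282 in GFP-positive cells and 280.3 in GFP-negative cells. The part of these cells in the differences above was not tested.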

How the data were processed

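RNA of 2 sorted populations was measured, 1 array each. The deposited values are 1 linear intensity per probe set and array, and per the submitters' processing notes the authors' tool was MAS5. The sources used here give neither its version nor detection calls. The 2% trimmed mean was 150.0 on both arrays, and no further normalization was applied. Of 45101 probe sets, 34945 had 1 symbol in the platform annotation, 932 several and 9160 none, besides 64 controls. Gene identifiers matched the reference gene table for 34741, which altered 0 symbols. The brightest probe set, by mean log2 signal over the arrays, stands for its gene. The floor is the 90th percentile of the signals of 127 probe sets of 78 tissue-restricted genes. A positive difference means a higher log2 value in GFP-positive cells.

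With 1 array per group no test was possible. Differences are counted at 2-fold and 1.5-fold, and the number of arrays limits the precision. The rule for named genes allowed every member, Foxp3, Gsta4 and, from each other list, at most the 4 largest differences past 1.5-fold; cell type markers come from a fixed list, and those named singly were picked after their values were seen. Members and lists were chosen with earlier results of these data known. The steps were tested on simulated data in which only genes well above the floor were changed, with less scatter than these arrays show. That test does not cover signals near the floor. Python 3.11.15, pandas 2.3.3, numpy 2.4.6 and statsmodels 0.14.6 were used. Alternatives were the floor, quantile normalization, lowess, averaged probe sets and leaving out probe sets that can match several transcripts.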

Additional observations from a re-analysis of the deposited data

How the results depend on the processing

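The scaling hardly mattered and the floor and the choice of probe set did. After quantile normalization and after lowess, the counts past either fold and the number above the floor stayed within 1.5 times the reported ones. The median stayed within the scatter between probe sets of a gene, and of the members 1, Gpx4, changed sign. With the floor doubled, 0 members were at least 2-fold higher, 1 was at least 1.5-fold higher and 0 were at least 1.5-fold lower. All genes did so in 0.77%, 5.04% and 6.10% of cases. Without a floor, 9 members were at least 2-fold higher and 6 lower, while all genes passed 2-fold in 18.2% and 13.3% of cases. At 1.5-fold, 15 members were higher and 10 lower, against 26.3% and 20.2% of all genes. With all probe sets of a gene averaged, 0 members were at least 2-fold higher, against 0.81% of all genes. At that setting 1 was at least 1.5-fold lower, against 3.93% of all genes, and 12 of 48 members changed sign. With those probe sets left out that can match several transcripts, 2 were at least 2-fold higher, 5 at least 1.5-fold higher and 1 at least 1.5-fold lower, of 42 members. The Srxn1 difference turned to 0.018 log2 with probe sets averaged and to 0.995 log2 without those probe sets. The Gss difference was at least 0.40 log2 with the floor doubled and 0.79 to 1.10 log2 otherwise, the 1.10 log2 also a lower bound. The Gstk1 difference was 0.59 to 0.62 log2 throughout. The Gstm7 difference was at least 0.09 log2 with the floor doubled, 0.55 log2 with probe sets averaged and 2.92 log2 without a floor. The Gclm difference was -0.18 log2 or lower with the floor doubled and -0.34 log2 with probe sets averaged. Averaging also gave -0.73 log2 for Txn2, 0.10 log2 for Glrx and 0.14 log2 for Glrx2. Fewer signals above a doubled floor, and noise admitted without one, follow from how these alternatives are built. In the averages, a probe set below the floor on both arrays enters as no difference, which by itself shrinks the value. This holds for Gclm, Gstm7 and Srxn1, so their averaged values say little about agreement between probe sets. Other causes were not tested. Low signal over background limits what can be said of Gclm, Gss, Srxn1, Gstm7, Gpx7 and Nqo1. No paired analysis was possible because each group has 1 array.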
